A study of Mus musculus with 12 samples.

Results

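Malat1, Neat1, Gas5, Snhg1, Snhg12 and Snhg15 were followed in RNA of sorted eosinophils from 2 fat depots and blood of mice. The 6 RNAs were chosen by name. The estimated reads of all their transcripts were summed, and they are 6 of the 54115 genes with a transcript in the deposited tables. The 12 libraries came from 5 untreated wild-type male FVB/NJ mice, fed chow and taken at 20 weeks of age. Gonadal adipose was represented by mice 2846, 2807, 2683 and 2668, subcutaneous adipose by mice 2846, 2807, 2771 and 2668, and blood by mice 2807, 2771, 2683 and 2668. All cells were sorted as live CD45+ CD11b+ SiglecF+ cells after red cell lysis. The fat was first digested for 45 min at 37 C with 1 mg/mL collagenase II, a step the labels do not give for blood, so tissue of origin and digestion cannot be told apart.

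Malat1 and Neat1 are long RNAs that stay in the nucleus. Malat1 gathers in nuclear speckles, where splicing factors are stored, and the long form of Neat1 is the scaffold of paraspeckles. Gas5, Snhg1, Snhg12 and Snhg15 are host RNAs: small nucleolar RNAs (snoRNAs) lie in their introns and are released when the spliced-out introns are trimmed, after which they guide chemical modification of ribosomal and spliceosomal RNA. The spliced remainder of a host such as Gas5 is exported and rapidly destroyed by nonsense-mediated decay, because ribosomes meet a stop codon early in it. Total RNA libraries, unlike libraries of polyadenylated RNA, also hold intron-containing and non-polyadenylated transcripts.

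In fat, 3 of the 4 snoRNA hosts (Gas5, Snhg1 and Snhg15) stood above blood in both depots by scaled read numbers, and Snhg12 did so in subcutaneous adipose. The calls of Snhg1 were lost with the effective length as an offset. Over all tested genes, 27.0% were called in gonadal and 26.8% in subcutaneous adipose against blood, and 15.4% were called higher in each. Snhg15 changed most, 14.1-fold in gonadal and 15.0-fold in subcutaneous adipose against blood. By the estimated reads, the higher read numbers of Gas5 and Snhg1 lay on transcripts annotated as retaining an intron. The test of their share missed the threshold, which was out of reach at this size for the comparisons whose libraries were fully separated. Malat1 and Neat1 were among the most abundant RNAs everywhere. Neither passed edgeR's test, and Malat1, unlike Neat1, passed in both depots by DESeq2 and limma-voom. No member differed between the depots past the threshold, where 0.00651% of all genes did.

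The genes lie on 4 chromosomes of mm10, with positions from the GENCODE M21 annotation. Malat1 (ENSMUSG00000092341, chromosome 19, 5795690 to 5802672, minus strand) and Neat1 (ENSMUSG00000092274, chromosome 19, 5824708 to 5845478, minus strand) are neighbours. Snhg1 (ENSMUSG00000108414) lies on the same chromosome from 8723475 to 8726443, on the plus strand. Gas5 (ENSMUSG00000053332) spans 161034422 to 161038539 of chromosome 1, plus strand. Snhg12 (ENSMUSG00000086290) spans 132308623 to 132311024 of chromosome 4, plus strand, and Snhg15 (ENSMUSG00000085156) spans 6525591 to 6528760 of chromosome 11, minus strand. Gas5 overlaps Zbtb37 on the opposite strand, and Malat1 overlaps the unclassified transcript Gm37376. The sources used here do not say whether reads were assigned by strand, and reads of such partners may be mixed.

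The promoters of the 3 hosts that were higher in both depots are shown because these members moved together. Each window runs from 250 bases before the RefSeq start site to 50 bases after it in GRCm38.p6 (mm10), read 5′ to 3′ on the strand of the gene. Capitals mark TGACGTCA, the palindromic site bound by CREB and ATF factors. The Gas5 window is chr1:161034916-161035215 on the plus strand, the Snhg1 window chr19:8723237-8723536 on the plus strand, and the Snhg15 window chr11:6528711-6529010 on the minus strand.
Gas5: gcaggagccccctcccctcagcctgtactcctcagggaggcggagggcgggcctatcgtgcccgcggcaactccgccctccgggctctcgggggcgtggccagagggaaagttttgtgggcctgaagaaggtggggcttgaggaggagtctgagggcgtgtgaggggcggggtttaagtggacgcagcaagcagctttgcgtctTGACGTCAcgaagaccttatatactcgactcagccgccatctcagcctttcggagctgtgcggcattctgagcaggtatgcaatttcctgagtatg
Snhg1: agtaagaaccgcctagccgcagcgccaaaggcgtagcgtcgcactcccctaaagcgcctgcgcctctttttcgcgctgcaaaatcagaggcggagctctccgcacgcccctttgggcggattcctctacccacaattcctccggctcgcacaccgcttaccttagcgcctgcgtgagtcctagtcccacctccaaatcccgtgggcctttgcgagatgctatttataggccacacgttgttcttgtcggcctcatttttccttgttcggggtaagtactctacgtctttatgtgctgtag
Snhg15: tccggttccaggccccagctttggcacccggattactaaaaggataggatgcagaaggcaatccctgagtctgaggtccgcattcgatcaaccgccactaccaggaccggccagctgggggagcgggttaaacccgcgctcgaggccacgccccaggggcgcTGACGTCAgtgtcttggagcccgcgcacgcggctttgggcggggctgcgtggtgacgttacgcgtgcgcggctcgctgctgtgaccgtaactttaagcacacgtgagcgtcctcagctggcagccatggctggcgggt
TGACGTCA begins 46 bases before the start site in Gas5 and 88 bases before it in Snhg15, and these letters are not in the Snhg1, Snhg12 or Malat1 window or in the second Gas5 window. Of 32817 RefSeq promoter windows of the same length, 1.79% held it. Other motifs searched on both strands were TGANTCA, the AP-1 site, CACGTG, the E-box, and GAANNTTC, a core of the heat shock element. CACGTG, found in 7.15% of all windows, occurred 11 bases after the start site of Snhg15. TGANTCA (7.81% of all windows) and GAANNTTC (7.86%) matched no member window. Neat1 had no window in the promoter set used and was not searched. The motifs were chosen after these windows had been read, and a match is only a match of letters.

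Library depth ran from 12477671 to 23734940 estimated reads in 11 libraries and was 4379954 in the subcutaneous library of mouse 2846. That library also stood apart in mitochondrial ribosomal RNA, with 28.0% of its reads against 4.64% to 8.74% in the others. The blood library of mouse 2771 stood apart in erythroid markers, with 8371 CPM summed over 7 genes against 7.65 to 230.3 CPM in the other 11 libraries. Of 10 eosinophil genes 5 were called lower in each depot against blood, beside 27.0% and 26.8% of all genes called in either direction. The median log2 fold change of the 10 was -1.21 in gonadal and -1.20 in subcutaneous adipose. Among the genes given by value below, Ccr3 alone was called lower, and the other calls lay among Ear1, Ear2, Ear6, Adgre1 and Gata1. Of the 10, Siglecf, which encodes the sorting marker, had 340.6 ± 138 CPM in gonadal adipose, 307.0 ± 142 CPM in subcutaneous adipose and 273.0 ± 44.3 CPM in blood (SD, 4 libraries a group, as for all errors below unless called SE). Ccr3, the eotaxin receptor, had 724.8 ± 245 CPM in gonadal adipose, 704.3 ± 340 CPM in subcutaneous adipose and 1526 ± 127 CPM in blood, and its lower call was lost in 6 of 12 fits without 1 library for gonadal and in 5 for subcutaneous adipose. Il5ra, a receptor chain for IL-5, lay between 100.9 and 121.6 CPM in the group means. The granule genes Epx and Prg2, defining genes of maturing eosinophils, averaged at most 4.49 and 3.52 CPM in any group. Macrophage markers summed to 1265 to 4819 CPM in gonadal and 1459 to 5828 CPM in subcutaneous adipose, against 387.4 to 959.0 CPM in blood, and 7 of 14 (gonadal) and 8 of 14 (subcutaneous) were called higher in fat. Fibroblast and adipose progenitor markers summed to 170.3 to 558.6 CPM in gonadal adipose, 263.9 to 4419 CPM in subcutaneous adipose, where the library of mouse 2846 was the highest, and 136.6 to 204.5 CPM in blood, with 8 of 10 called higher in each depot. Monocyte markers summed to 974.5 to 6837 CPM in gonadal adipose, 443.6 to 1603 CPM in subcutaneous adipose and 102.9 to 1964 CPM in blood, with 2 of 8 called higher in each depot. Neutrophil markers summed to 373.7 to 801.6 CPM in gonadal adipose, 409.1 to 1296 CPM in subcutaneous adipose and 2916 to 4261 CPM in blood, and 7 of 9 tested were called lower in each depot. T cell markers summed to 3.39 to 19.8 CPM in gonadal adipose, 37.5 to 307.4 CPM in subcutaneous adipose and 15.9 to 59.7 CPM in blood, with 8 of 11 called lower in gonadal and 4 of 11 called higher in subcutaneous adipose. B cell markers summed to 8.10 to 18.01 CPM in gonadal adipose, 16.04 to 109.0 CPM in subcutaneous adipose and 26.5 to 275.3 CPM in blood, with 7 of 9 called lower in gonadal and 0 called in subcutaneous adipose. Endothelial markers summed to 47.8 to 84.1 CPM in gonadal adipose, 38.3 to 227.3 CPM in subcutaneous adipose and 83.3 to 129.2 CPM in blood. Of 6 tested, 2 were called higher in each depot and 1 was called lower in gonadal adipose. Their median log2 fold change was 2.30 in gonadal and 2.99 in subcutaneous adipose, so the sum does not show the direction of most of these genes. The sums over markers of NK cells, dendritic cells, mast cells and basophils, and adipocytes were each at most 123.7 CPM in any library. In each depot 2 of 4 tested adipocyte genes, 1 of 6 dendritic cell genes and the 1 tested mast cell and basophil gene were called higher. Of 5 NK cell genes 0 were called. All 14 macrophage and all 10 fibroblast genes were detected in every group. In bulk RNA, fewer cells of a type and less RNA per cell cannot be told apart, and the part of these cells in the results that follow was not tested.

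The 6 RNAs differed in level by orders of magnitude. In CPM, the reads of a gene scaled to a common library size with TMM factors, Malat1 ranked place 3 of 15367 tested genes in gonadal adipose, 4 in subcutaneous adipose and 3 in blood. Neat1 ranked 10 in gonadal adipose, 10 in subcutaneous adipose and 12 in blood. The 6 together took 3.83% to 4.54% of a gonadal library, 3.42% to 4.53% of a subcutaneous library and 2.58% to 3.27% of a blood library, nearly all of it from these 2 RNAs.

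Levels of different genes were set side by side per kilobase of effective length. In gonadal adipose the order of mean levels was Malat1 with 10738 ± 1052 CPM per kb, Neat1 with 1342 ± 276, Gas5 with 141.1 ± 24.0, Snhg1 with 39.6 ± 15.4, Snhg15 with 34.7 ± 4.87 and Snhg12 with 15.2 ± 7.07 CPM per kb (SD, n = 4). Snhg1 and Snhg15 overlapped there and the other neighbours did not. In subcutaneous adipose Malat1 had 10324 ± 1481 and Neat1 1375 ± 260 CPM per kb. The next places went to Gas5 (165.0 ± 39.2 CPM per kb), Snhg1 (64.5 ± 58.0), Snhg12 (42.3 ± 47.2) and Snhg15 (37.8 ± 12.7). Libraries of neighbours overlapped there from Gas5 downward, and Snhg12 lay above Snhg15 in 1 of the 4 libraries, that of mouse 2846. In blood the order was Malat1 (7798 ± 1486 CPM per kb), Neat1 (1210 ± 233), Gas5 (75.5 ± 6.78), Snhg1 (24.2 ± 3.82), Snhg12 (10.6 ± 3.24) and Snhg15 (2.71 ± 1.10), with no overlap between any neighbours. Snhg15 was thus last in blood, below Snhg12 in all 4 libraries, and above Snhg12 in all 4 gonadal libraries. The ratio of Malat1 to Neat1 per kb was 7.20 to 9.41 in gonadal adipose, 6.95 to 7.97 in subcutaneous adipose and 4.97 to 7.88 in blood.

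**Figure D1:**
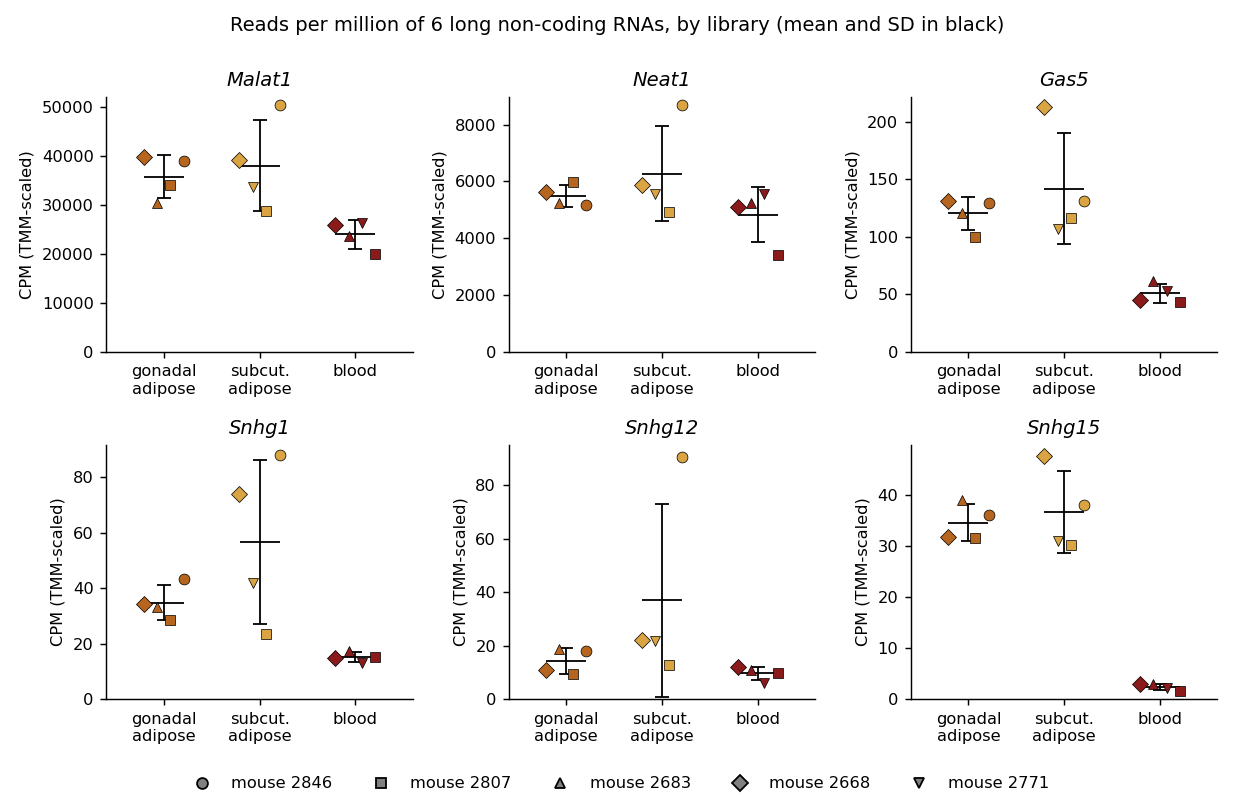
CPM of the 6 RNAs (y axes, linear, a scale of its own per panel) in 4 libraries each of gonadal adipose, subcutaneous adipose and blood, with the symbol giving the mouse and black lines the mean and SD. In CPM all 8 fat libraries lie above all 4 blood libraries for Malat1, Gas5, Snhg1 and Snhg15, and the groups overlap for Neat1. How many of all genes are separated in this way was not counted.

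Malat1 had 38820, 33975, 30234 and 39704 CPM in the gonadal libraries of mice 2846, 2807, 2683 and 2668. The subcutaneous libraries of mice 2846, 2807, 2771 and 2668 had 50386, 28719, 33501 and 39085 CPM, and the blood libraries of mice 2807, 2771, 2683 and 2668 had 19962, 26295, 23577 and 25779 CPM. In CPM every fat library thus lay above every blood library, and the depots overlapped. Per kb of effective length both depots overlapped blood. Malat1 then had 9542 to 12024 CPM per kb in gonadal adipose, 8902 to 12023 in subcutaneous adipose and 6365 to 9608 in blood. The log2 fold change was 0.58 in gonadal adipose against blood (SE 0.255, 95% interval 0.03 to 1.13) and 0.67 in subcutaneous adipose against blood (SE 0.255, 0.11 to 1.22). Neither passed edgeR's quasi-likelihood test after Benjamini-Hochberg adjustment over all 15367 genes (adjusted p = 0.109 in gonadal and 0.0691 in subcutaneous adipose). With the mouse as a random block in limma-voom, adjusted p was 0.0341 in gonadal and 0.0229 in subcutaneous adipose, and with the mouse as a fixed block in edgeR it was 0.226 in gonadal and 0.216 in subcutaneous adipose. DESeq2 called both (adjusted p = 0.0194 gonadal, 0.00349 subcutaneous), as did limma-voom with library weights (0.0102 gonadal, 0.0257 subcutaneous). The call of Malat1 thus differed between tools, and its value was above 0 in both depots under all 25 alternatives. Almost all reads, 94.3% to 96.8% of the gene in every library, lay on Malat1-201, the unspliced form of 6983 bases.

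Neat1, the paraspeckle scaffold, had 5154, 5975, 5222 and 5607 CPM in gonadal adipose, in the same order of mice. Subcutaneous adipose had 8701, 4924, 5559 and 5872 CPM and blood had 3395, 5556, 5233 and 5100 CPM. The groups overlapped, with the highest value in the subcutaneous library of mouse 2846 and the lowest in the blood library of mouse 2807. Log2 fold changes were 0.19 (SE 0.235, 95% interval -0.32 to 0.69, adjusted p = 0.597) in gonadal and 0.38 (SE 0.235, -0.13 to 0.89, adjusted p = 0.251) in subcutaneous adipose against blood by edgeR's quasi-likelihood test. Without the blood library of mouse 2807 they were 0.02 in gonadal and 0.21 in subcutaneous adipose. The gonadal value was 0.12 without gonadal adipose of mouse 2807, and the subcutaneous value was 0.20 without subcutaneous adipose of mouse 2846. The gene makes a long form, Neat1-201 of 20771 bases, and a short form, Neat1-202 of 3004 bases, which share their 5′ end. Neat1-201 took 45.4% ± 10.02 of the reads in gonadal adipose, 50.8% ± 5.19 in subcutaneous adipose and 44.5% ± 5.90 in blood. The differences of 0.950 and 6.32 percentage points against blood, and of -5.37 points between gonadal and subcutaneous adipose, were within the spread of the libraries (exact two-sided permutation tests, adjusted over 3 comparisons, p = 0.886, 0.514 and 0.643). With 4 libraries against 4 no p below 0.0286 can be reached, and the split of reads between overlapping forms is Salmon's estimate. A share of reads is not a share of molecules, since a longer form yields more reads. By TPM, which corrects for length, Neat1-201 took 5.96% to 14.8% of the gene over all libraries.

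Gas5 hosts box C/D snoRNAs and is named for its accumulation in growth-arrested cells. It had 129.2, 100.1, 121.0 and 130.9 CPM in gonadal adipose. Subcutaneous adipose had 131.2, 115.9, 107.0 and 212.9 CPM, and blood had 43.6, 52.9, 61.5 and 44.7 CPM. All fat libraries lay above all blood libraries, and the subcutaneous library of mouse 2668 was the highest. Gas5 rose by 1.25 on the log2 scale in gonadal adipose (2.37-fold, SE 0.214, edgeR adjusted p = 0.00142) and by 1.48 in subcutaneous adipose (2.80-fold, SE 0.215, adjusted p = 0.000509), each against blood.

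Snhg1, a box C/D host as well, had 43.4, 28.5, 33.1 and 34.4 CPM in gonadal adipose. It had 88.0, 23.4, 41.7 and 74.0 CPM in subcutaneous adipose and 15.1, 12.9, 17.4 and 14.9 CPM in blood. In CPM no fat library overlapped blood, but the subcutaneous libraries spread widely. Per kb of effective length both depots overlapped blood, with 28.2 to 60.8 CPM per kb in gonadal adipose, 18.8 to 149.5 in subcutaneous adipose and 20.2 to 28.3 in blood. Snhg1 rose by 1.21 (2.31-fold, SE 0.327, edgeR adjusted p = 0.0167) in gonadal and by 1.91 (3.75-fold, SE 0.333, adjusted p = 0.00165) in subcutaneous adipose, each against blood on the log2 scale. The gonadal call of edgeR's quasi-likelihood test was lost when the blood library of mouse 2771 was left out (adjusted p = 0.0526), and when the gonadal library of mouse 2846 was (0.0521). With the effective length as an offset, the values were 0.71 in gonadal (adjusted p = 0.336) and 1.40 in subcutaneous adipose (0.0633), and neither passed.

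Snhg12, which hosts box H/ACA snoRNAs and 1 box C/D snoRNA, had 17.99, 9.29, 18.8 and 10.8 CPM in gonadal adipose. Subcutaneous adipose had 90.7, 12.8, 21.9 and 22.3 CPM, and blood had 9.73, 5.92, 10.8 and 11.9 CPM. Gonadal adipose overlapped blood, subcutaneous adipose did not, and the library of mouse 2846 stood far above the other 3 subcutaneous ones. The log2 fold change was 0.57 (SE 0.522, edgeR adjusted p = 0.454) in gonadal adipose, and Snhg12 rose by 1.93 (3.80-fold, SE 0.538, adjusted p = 0.0208) in subcutaneous adipose, each against blood. With the mouse as a fixed block the gonadal value was 0.10 (edgeR adjusted p = 0.871), and 1 of the 3 same-mouse pairs had more in gonadal adipose than in blood. Leaving out the subcutaneous library of mouse 2846 brought the subcutaneous value to 1.02 (edgeR adjusted p = 0.0409). The call was lost when blood of mouse 2771 was left out (1.74, adjusted p = 0.0631), and also when subcutaneous adipose of mouse 2846 and blood of mouse 2807 were left out together (1.01, adjusted p = 0.0676). In limma-voom the subcutaneous value was 1.15 with library weights (adjusted p = 0.0284) and 1.23 with the mouse as a random block (0.0357).

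Snhg15, the host of the H/ACA snoRNA Snora9 and in human cells a short-lived RNA that rises under chemical stress, had 36.0, 31.4, 39.0 and 31.7 CPM in gonadal adipose. Subcutaneous adipose had 38.0, 30.2, 30.97 and 47.5 CPM, and blood had 1.66, 2.25, 2.93 and 2.88 CPM. The lowest fat library stood far above the highest blood library. Snhg15 rose by 3.82 on the log2 scale (14.1-fold, 95% interval 9.90 to 20.2, edgeR adjusted p = 1.61e-06) in gonadal and by 3.91 (15.0-fold, 10.5 to 21.5, adjusted p = 1.05e-06) in subcutaneous adipose, each against blood. Same-mouse differences in log2 CPM ran from 3.41 to 4.14 in the 3 mice that gave gonadal adipose and blood and from 3.71 to 4.09 in the 3 that gave subcutaneous adipose and blood. Both main forms stood higher in fat. Snhg15-202 of 1631 bases had 16.1 ± 1.00 CPM in gonadal adipose, 14.1 ± 4.60 CPM in subcutaneous adipose and 0.653 ± 0.552 CPM in blood. Snhg15-203 of 1540 bases, the form with Snora9 inside an exon, had 11.9 ± 1.85 CPM in gonadal adipose, 13.5 ± 2.87 CPM in subcutaneous adipose and 1.24 ± 0.198 CPM in blood.

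Counted over the members, 3 of 6 were called higher in gonadal adipose against blood and none lower, beside 27.0% of all tested genes called in either direction and 15.4% called higher. In subcutaneous adipose against blood 4 of 6 were called higher, beside 26.8% called and 15.4% called higher over all genes. The median log2 fold change of all tested genes was 0.08 and 0.07 in these comparisons, which share the blood libraries. Between the depots 0 of 6 were called by edgeR's quasi-likelihood test, DESeq2 or limma-voom, and 0.00651% of all genes (1 of 15367) were called. At an unadjusted p under 0.05 there was 1, Snhg12 (log2 fold change of gonadal against subcutaneous adipose -1.35, 95% interval -2.50 to -0.21, adjusted p = 0.557). This value was -0.43 (edgeR adjusted p = 0.778) once subcutaneous adipose of mouse 2846 was left out. The intervals of the others were -0.64 to 0.46 for Malat1, -0.70 to 0.32 for Neat1, -0.69 to 0.22 for Gas5, -1.40 to 0.00 for Snhg1 and -0.54 to 0.37 for Snhg15, so smaller differences between the depots could not be seen at this size.

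**Figure D2:**
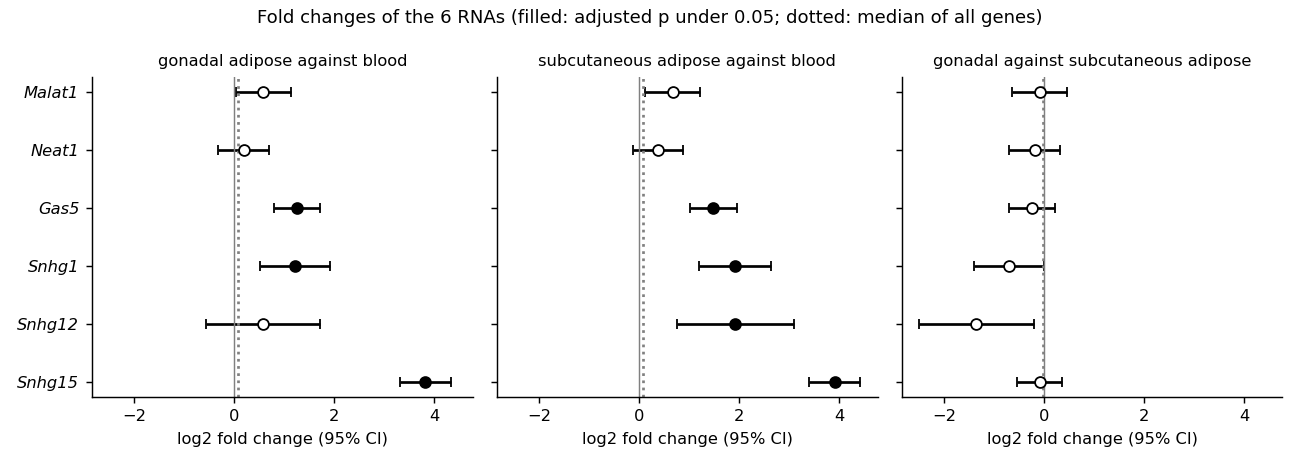
Log2 fold changes of the 6 RNAs with 95% intervals (x axes) in gonadal adipose against blood, subcutaneous adipose against blood, and gonadal against subcutaneous adipose. Snhg15 lies at 3.82 and 3.91 against blood, Gas5 and Snhg1 between 1.21 and 1.91, and all 6 are open circles between the depots.

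The forms of Gas5 and Snhg1 were also set side by side, by Salmon's split of the reads. Of the 25 annotated Gas5 transcripts 20 are classed as retained_intron, and of the 18 Snhg1 transcripts 14 are. Their main forms are Gas5-218 of 2556 bases, with 6 snoRNA genes inside its exons, and Snhg1-215 of 2728 bases. Retained-intron transcripts of Gas5 had 104.3 ± 13.9 CPM in gonadal adipose, 122.2 ± 49.3 in subcutaneous adipose and 37.3 ± 8.25 CPM in blood. The other Gas5 transcripts had 16.0 ± 4.05 CPM in gonadal adipose, 19.6 ± 6.46 CPM in subcutaneous adipose and 13.3 ± 0.967 CPM in blood. Fat and blood overlapped for these other transcripts and not for the retained-intron ones. Retained-intron transcripts of Snhg1 had 32.5 ± 6.41 CPM in gonadal adipose, 55.7 ± 29.2 CPM in subcutaneous adipose and 13.3 ± 2.22 CPM in blood. Its other transcripts had 2.38 ± 1.46 CPM in gonadal adipose, 1.05 ± 0.781 CPM in subcutaneous adipose and 1.72 ± 0.827 CPM in blood, again overlapping.

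With the retained-intron transcripts of all genes left out, Gas5 had log2 fold changes of 0.22 (edgeR adjusted p = 0.576) in gonadal and 0.54 (0.146) in subcutaneous adipose against blood. Snhg1 then had 0.42 (adjusted p = 0.782) in gonadal and -0.71 (0.615) in subcutaneous adipose, so the calls of both genes ended and the sign of Snhg1 turned in subcutaneous adipose. The remaining Snhg1 transcripts lay between 0 and 4.30 CPM in all libraries, so these values of Snhg1 rest on few reads. Counted on retained-intron transcripts alone, Gas5 had 1.48 (edgeR adjusted p = 0.0012) in gonadal and 1.71 (0.000535) in subcutaneous adipose, and Snhg1 had 1.28 (0.0141) in gonadal and 2.06 (0.00122) in subcutaneous adipose, all against blood. Without these transcripts 1 of the 6 members was called in gonadal and 2 in subcutaneous adipose against blood, beside 24.2% of all genes called in gonadal and 23.4% in subcutaneous adipose in the same fit. The share of a gene's reads on retained-intron transcripts tests whether both kinds of transcript changed alike. The retained-intron share of Gas5 was 86.7% ± 3.27 in gonadal adipose, 85.2% ± 6.09 in subcutaneous adipose and 73.2% ± 4.64 in blood, with no overlap of either depot with blood. The share of Snhg1 was 93.1% ± 4.51 in gonadal adipose, 98.2% ± 1.70 in subcutaneous adipose and 88.3% ± 5.92 in blood, with subcutaneous adipose above blood in all libraries and gonadal adipose overlapping both groups. For Gas5 in both depots and for Snhg1 in subcutaneous adipose the exact two-sided permutation p was 0.0286, the smallest that 4 against 4 can give, and 0.0571 after adjustment over 6 tests, which misses the threshold. With only these tests at that floor, no smaller adjusted p was possible. Their miss therefore does not show that the share was unchanged. For Snhg1 in gonadal adipose against blood the adjusted p was 0.274. Over all genes, 7.82% to 10.6% of the reads of a gonadal library lay on retained-intron transcripts. The range was 7.14% to 10.2% in subcutaneous adipose and 7.87% to 9.29% in blood, so the groups overlapped. The gonadal library of mouse 2683 and the subcutaneous library of mouse 2846 lay below all blood libraries. The other fat libraries lay above all blood libraries, also with the 6 members left out. Most fat libraries thus had a higher retained-intron share over all genes as well.

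**Figure D3:**
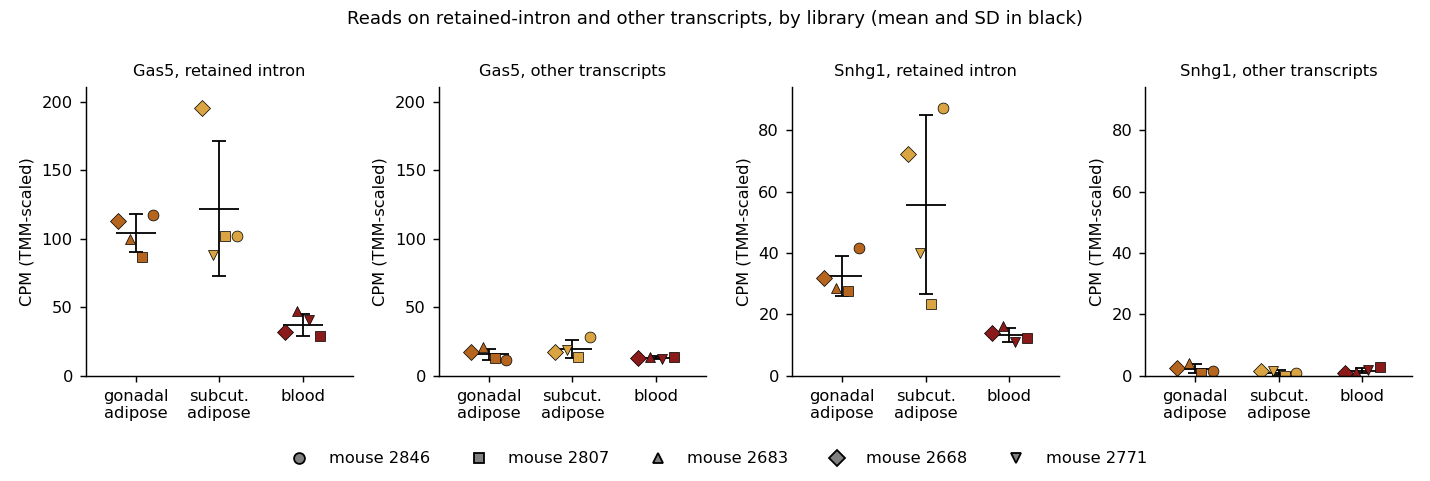
CPM (y axes, linear, shared within a gene) of the retained-intron and the other transcripts of Gas5 and Snhg1 in 4 libraries a group, with the symbol giving the mouse and black lines the mean and SD. Retained-intron reads stand higher in fat, at means of 104.3 and 122.2 CPM against 37.3 CPM in blood for Gas5, while the other transcripts overlap between the groups.

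The annotation places 24 snoRNA genes inside the 4 hosts on the same strand, 10 in Gas5, 8 in Snhg1, 5 in Snhg12 and 1 in Snhg15. Of these, 10 were assigned no read by Salmon in any library and 10 passed the filter on low counts. The unassigned ones include a second Snord80 entry that lies inside the first. A read of a host that still holds its intron cannot be told from a read of the snoRNA. The 3 snoRNAs below are examples, from GENCODE M21 transcripts. The box C (TGATGA) and box D (CTGA) motifs of C/D snoRNAs or the ACA box of H/ACA snoRNAs are in capitals where the exact letters were found. Snord80 (chr1:161037601-161037681, plus strand) lies in Gas5, Snord22 (chr19:8725866-8725991, plus strand) in Snhg1 and Snora9 (chr11:6528033-6528165, minus strand) in Snhg15.
Snord80: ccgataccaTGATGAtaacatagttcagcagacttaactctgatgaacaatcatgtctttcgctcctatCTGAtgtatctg
Snord22: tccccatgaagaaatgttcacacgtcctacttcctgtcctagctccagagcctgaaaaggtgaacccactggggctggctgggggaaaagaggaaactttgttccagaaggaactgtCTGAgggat
Snora9: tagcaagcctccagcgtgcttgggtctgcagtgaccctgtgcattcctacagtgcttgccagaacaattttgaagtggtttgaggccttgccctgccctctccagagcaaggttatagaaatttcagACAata

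Snord22 was the most abundant of them. It had 174.7, 102.5, 138.8 and 76.6 CPM in gonadal adipose, 571.4, 84.8, 191.9 and 105.0 CPM in subcutaneous adipose and 90.1, 72.2, 114.6 and 73.6 CPM in blood. The groups overlapped, with the subcutaneous library of mouse 2846 far above the rest. Its log2 fold changes against blood were 0.49 (SE 0.518, edgeR adjusted p = 0.523) in gonadal and 1.44 (SE 0.527, adjusted p = 0.0624) in subcutaneous adipose. Snora9 had 3.60, 1.15, 1.02 and 1.10 CPM in gonadal adipose, 12.9, 1.90, 0.929 and 2.43 CPM in subcutaneous adipose and 0.593, 2.02, 1.89 and 1.79 CPM in blood. It overlapped between all groups. Its log2 fold changes against blood were 0.12 (SE 0.804, edgeR adjusted p = 0.928) in gonadal and 1.47 (SE 0.824, adjusted p = 0.202) in subcutaneous adipose. Its host had 3.82 and 3.91. Snora9 had 9.83 to 53.4 estimated reads in a library. It lies inside an exon of a host form, and Salmon divides such reads between them. How well the libraries capture released snoRNAs was not tested, so these values do not show whether host and snoRNA changed alike. Snora44 in Snhg12 had 45.8 CPM in the subcutaneous library of mouse 2846 and 2.32 to 8.11 CPM in the other 11 libraries. Snord80 averaged 0.900 ± 0.291 CPM in gonadal adipose, 1.47 ± 1.09 CPM in subcutaneous adipose and 0.918 ± 0.178 CPM in blood, with log2 fold changes against blood of -0.03 in gonadal and 0.62 in subcutaneous adipose. The other tested Gas5 snoRNAs had larger values, Gm22489 0.98 and 1.92 and Gm22357 0.50 and 1.49, in the same order. Gm22357 averaged 1.92 ± 0.937 CPM in gonadal adipose, 3.97 ± 4.74 CPM in subcutaneous adipose and 1.35 ± 0.324 CPM in blood. The subcutaneous library of mouse 2846 had 11.1 CPM of it. Gm22489, Snora61 and Snord99 averaged at most 1.29, 1.78 and 1.01 CPM in any group. The reads of Snora16a in Snhg12 were divided between 2 annotated entries that differ by 1 base at an end. Together they had 3.97 ± 1.45 CPM in gonadal adipose, 6.03 ± 6.12 CPM in subcutaneous adipose and 3.58 ± 0.791 CPM in blood.

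None of the 10 tested snoRNA genes was called by edgeR's quasi-likelihood test in any comparison. At an unadjusted p under 0.05 there was 1 in gonadal adipose against blood (a Snora16a entry, lower) and there were 2, both higher, in subcutaneous adipose against blood, and 2, both lower in gonadal adipose, between the depots. DESeq2 called 1 in gonadal and 2 in subcutaneous adipose against blood and 0 between the depots, and limma-voom called 0 in each. The median log2 fold change of the 10 was 0.45 in gonadal and 1.48 in subcutaneous adipose, beside 0.08 and 0.07 over all genes. Without the subcutaneous library of mouse 2846 the subcutaneous median was 0.16, with Snord22 at 0.56, Snora9 at 0.17 and Snora44 at 0.16. The gonadal median was -0.01 without the gonadal library of mouse 2846, 0.20 without blood of mouse 2807 and 0.29 without blood of mouse 2771. In subcutaneous adipose against blood edgeR called Snord22 without subcutaneous adipose of mouse 2807 (adjusted p = 0.0256), and Snord22 and Snora44 without subcutaneous adipose of mouse 2668 (0.0353 for Snord22 and 0.0396 for Snora44). SEs of single snoRNAs ran from 0.518 to 2.92 in gonadal and from 0.527 to 1.84 in subcutaneous adipose against blood, the largest in the Snora16a entries.

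**Figure D4:**
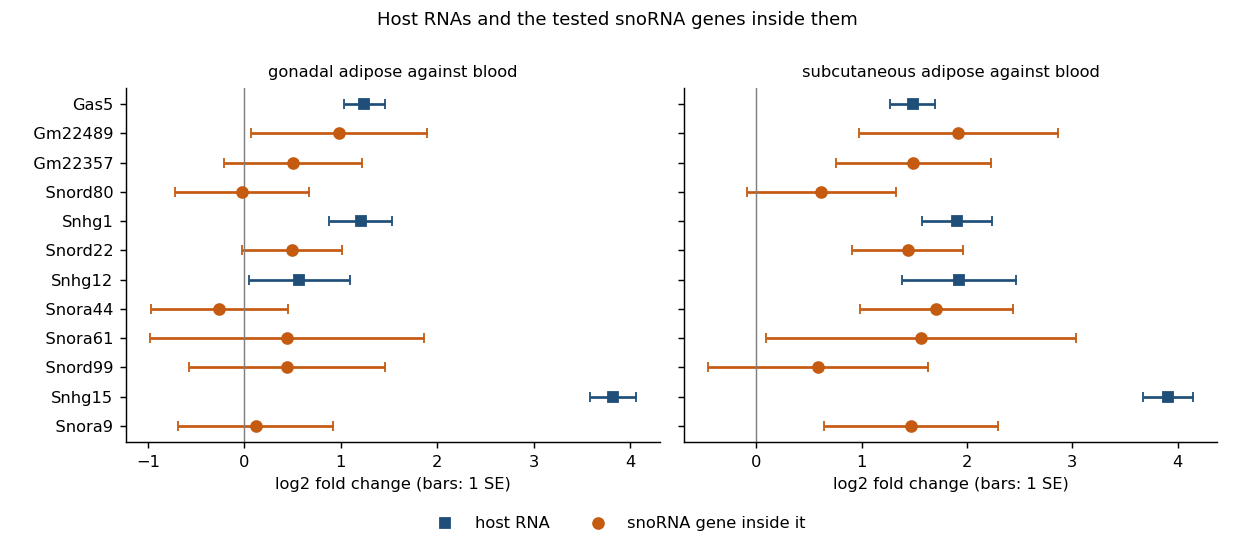
Log2 fold changes with bars of 1 SE (x axes) of the 4 host RNAs (squares) and of the tested snoRNA genes inside them (circles) in gonadal and subcutaneous adipose against blood. Snhg15 stands at 3.82 and 3.91 and Snora9 inside it at 0.12 and 1.47, and the uncertain Snora16a entries are not drawn. The values of Snora9 rest on few reads, and the capture of released snoRNAs was not tested.

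Genes of the same pathways were counted by lists chosen with earlier results of these data known. Of 10 tested lncRNA hosts of snoRNAs outside the 6 members, 0 were called in gonadal adipose against blood (1 at an unadjusted p under 0.05, 0 by DESeq2 and 2 by limma-voom). In subcutaneous adipose 1 rose and 1 fell. Snhg8 had 27.3 ± 12.2 CPM in subcutaneous adipose, against 9.50 ± 1.31 CPM in blood (log2 fold change 1.52, SE 0.299, edgeR adjusted p = 0.00331). The call of Snhg8 was lost without retained-intron transcripts (0.92, edgeR adjusted p = 0.207). Snhg20 had 13.2 ± 8.08 CPM in subcutaneous adipose, against 49.6 ± 10.7 CPM in blood (log2 fold change -1.89, SE 0.38, adjusted p = 0.00391). Median log2 fold changes over the 10 were -0.01 in gonadal and 0.22 in subcutaneous adipose against blood. Of all 24 other annotated lncRNAs that hold a snoRNA gene and were tested, 1 rose and 1 fell in gonadal adipose. In subcutaneous adipose 4 rose and 4 fell. Beside both host lists, 27.0% of all tested genes were called in gonadal and 26.8% in subcutaneous adipose, in either direction.

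Of 15 other nuclear or regulatory lncRNAs, 6 rose and 1 fell in gonadal adipose, with a median of 1.52. In subcutaneous adipose 6 rose and 0 fell, with a median of 1.51. Beside this, 15.4% of all tested genes were called higher in each depot. Lncpint, a p53-regulated lncRNA, had 155.1 ± 59.4 CPM in gonadal and 188.6 ± 40.5 CPM in subcutaneous adipose, against 20.3 ± 2.997 CPM in blood (log2 fold changes 2.93 in gonadal and 3.21 in subcutaneous adipose). Mir22hg, the host of a microRNA, had 34.0 ± 9.28 CPM in gonadal adipose, against 6.83 ± 3.69 CPM in blood. Firre, a lncRNA that organizes nuclear contacts, had 20.7 ± 16.3 CPM in subcutaneous adipose, against 1.84 ± 1.96 CPM in blood. Mir22hg and Firre are given for 1 depot each by the naming rule, which does not show that the other depot was unchanged. Over all 1131 other tested lncRNAs, 79 rose and 110 fell in gonadal adipose (median -0.29), and 95 rose and 92 fell in subcutaneous adipose (median -0.15).

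The proteins that share the bodies of Malat1 and Neat1 were counted in the same way. Of 19 paraspeckle protein genes 3 rose and 0 fell in each depot (median log2 fold change 0.09 in gonadal and 0.20 in subcutaneous adipose), which is 15.8% of the list and near the 15.4% of all genes called higher. Sfpq, a core paraspeckle protein, had 299.3 ± 38.2 CPM in gonadal and 346.6 ± 37.3 CPM in subcutaneous adipose, against 206.5 ± 11.9 CPM in blood. Its gonadal call (edgeR adjusted p = 0.0147) was lost without blood of mouse 2683 (0.0566), blood of mouse 2668 (0.0516) or gonadal adipose of mouse 2807 (0.0648). Hnrnpa1, another paraspeckle protein, had 207.0 ± 20.9 CPM in gonadal and 154.8 ± 31.8 CPM in subcutaneous adipose, against 112.7 ± 10.6 CPM in blood, and its subcutaneous call (edgeR adjusted p = 0.0487) was lost under 18 of 25 alternatives. Of 27 nuclear speckle and splicing genes 8 rose in gonadal and 9 in subcutaneous adipose and 0 fell (median log2 fold change 0.21 in gonadal and 0.30 in subcutaneous adipose), which is 29.6% and 33.3% of the list beside 15.4% of all genes called higher in each. The splicing regulator Tra2a had 216.9 ± 75.5 CPM in gonadal and 296.4 ± 58.8 CPM in subcutaneous adipose, against 79.0 ± 9.59 CPM in blood. Srsf3, an SR protein, had 271.3 ± 46.8 CPM in gonadal adipose and a mean of 309.6 CPM in subcutaneous adipose, against 105.4 ± 8.83 CPM in blood.

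Of 20 snoRNP protein and assembly genes 6 rose and 0 fell in each depot (median log2 fold change 0.54 in gonadal and 0.25 in subcutaneous adipose), beside 15.4% of all genes called higher in each. Fbl, the methyltransferase of box C/D particles, had 68.6 ± 28.0 CPM in gonadal and 77.7 ± 46.0 CPM in subcutaneous adipose, against 27.9 ± 4.82 CPM in blood. The gonadal call of Fbl (edgeR adjusted p = 0.0184) was lost without blood of mouse 2771 (0.059), blood of mouse 2683 (0.0569) or gonadal adipose of mouse 2668 (0.0534). Its subcutaneous log2 fold change of 1.48 was 0.99 without subcutaneous adipose of mouse 2668 (adjusted p = 0.0185). Nolc1, a chaperone of snoRNPs, had 30.1 ± 3.69 CPM in gonadal and 39.6 ± 3.84 CPM in subcutaneous adipose, against 13.5 ± 5.49 CPM in blood, and its gonadal call was lost with the effective length as an offset (edgeR adjusted p = 0.0794) and without retained-intron transcripts (0.0687). Of 20 nonsense-mediated decay factors 3 rose and 3 fell in gonadal adipose, and 3 rose and 2 fell in subcutaneous adipose, shares near the 27.0% and 26.8% of all genes called in either direction. Nbas, which also acts in Golgi transport, had 33.0 ± 7.07 CPM in gonadal and 35.2 ± 1.15 CPM in subcutaneous adipose, against 8.01 ± 1.68 CPM in blood. Pnrc2, which links the decay factor Upf1 to decapping, had 58.0 ± 4.38 CPM in gonadal and 55.6 ± 4.42 CPM in subcutaneous adipose, against 122.1 ± 14.1 CPM in blood. Of 81 ribosomal protein genes 2 rose and 4 fell in gonadal adipose (median 0.00), and 1 rose and 16 fell in subcutaneous adipose (median -0.36), or 7.41% of the list called in gonadal and 20.99% in subcutaneous adipose.

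Of 18 early response and heat shock genes 17 rose in gonadal and 18 in subcutaneous adipose, beside 15.4% of all genes called higher in each. Their median log2 fold changes were 3.13 in gonadal and 3.66 in subcutaneous adipose. Their summed level was 15971 to 21621 CPM in gonadal adipose, 22253 to 29322 CPM in subcutaneous adipose and 2472 to 3015 CPM in blood. Hspa1a, an inducible HSP70 gene with a near-identical copy in Hspa1b, had 389.6 ± 159 CPM in gonadal and 838.3 ± 489 CPM in subcutaneous adipose, against 0.527 ± 0.450 CPM in blood. Of 14 p53 target genes 4 rose and 4 fell in gonadal adipose and 4 rose and 3 fell in subcutaneous adipose. Their median log2 fold change was -0.03 in gonadal and 0.04 in subcutaneous adipose. Over all genes 27.0% were called in gonadal and 26.8% in subcutaneous adipose in either direction. Cdkn1a, the cell cycle inhibitor p21, had 218.8 ± 103 CPM in gonadal and 226.8 ± 98.0 CPM in subcutaneous adipose, against 4.20 ± 2.11 CPM in blood. The part of digestion or stress in the levels of the 6 RNAs was not tested.

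The genes with the most similar pattern over the 12 libraries were named by the root mean square difference of centred log2 CPM, among 5535 candidates with a mean of at least 20 CPM. Closest to Malat1 was Celf1, an RNA-binding protein gene (0.11 log2 units). Dhx57 was closest to Neat1 (0.15), and Srsf3 and Tra2b, both splicing regulators, to Gas5 (0.20 and 0.21 log2 units). Rsrc1 was closest to Snhg1 (0.37). Rnu11, a small nuclear RNA of the minor spliceosome, was closest to Snhg12 (0.27), followed by Snord22 (0.39). Snhg12 and Snord22 were both highest in the subcutaneous library of mouse 2846, with 90.7 and 571.4 CPM. Snhg15 was closest to Ppp1r15a (0.38), which encodes the stress-induced phosphatase subunit GADD34, and to Ptp4a1 (0.40). Ppp1r15a had 383.3 CPM in gonadal and 503.7 CPM in subcutaneous adipose, against 21.4 CPM in blood. The members' own root mean square deviations from their means were 0.36 for Malat1, 0.29 for Neat1 and 0.69 for Gas5. They were 0.86 for Snhg1, 0.94 for Snhg12 and 1.82 log2 units for Snhg15. The differences therefore do not rank closeness between members. These likenesses are descriptions over libraries that share mice and groups.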

How the data were processed

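RNA of sorted eosinophils was sequenced from SMARTer Stranded Total RNA-Seq libraries (Pico Input, version 2), per the labels. Trim Galore 0.6.4, Salmon 1.6.0, DESeq2 1.30.1 and mm10 are named in the submitters' processing notes. The deposited tables hold the authors' estimated counts, TPM and effective lengths for 140992 transcripts, per the file headers. The estimated counts come from Salmon, which divides ambiguous reads among overlapping transcripts, so that transcript shares are less certain than gene sums. The deposited TPM served as weights of the effective length and in an alternative for the transcript shares.

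Transcripts were matched to GENCODE M21, apart from 1201 that held 0.351% to 0.538% of a library's reads and were left out. Counts were summed per gene and rounded. edgeR 4.0.16 (R 4.3.3; TMM, filterByExpr, robust quasi-likelihood test) was fitted on all 12 libraries with group as the single term, leaving 15367 genes, with Benjamini-Hochberg adjustment and a threshold of 0.05. The SE is the size of a log2 fold change over the square root of F. All 6 members passed the filter. Intervals assume that libraries are the replicates; reads are not independent molecules. DESeq2 1.42.0 and limma 3.58.1 served as alternatives. Mouse numbers mark the animal, so same-numbered libraries are paired; deviations from group means correlated at 0.0842 on average over 9 same-mouse pairs (-0.111 to 0.358). Transcript shares were compared with exact permutation tests.

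The members, the gene lists and the rule for naming genes were chosen with earlier results of these data known. The rule names, per list and comparison, up to 2 called genes with the largest change and at least 20 CPM in the higher group, 5 eosinophil genes, the tested snoRNAs and the genes most like each member. No batch is given in the labels.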

Additional observations from a re-analysis of the deposited data

Results flagged for a closer look

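Of 18 sets of 4 libraries (6 RNAs in 3 groups) examined with Dixon's criterion, 1 held a library set apart: Snhg12 had 90.7 CPM in the subcutaneous library of mouse 2846, against 12.8 to 22.3 CPM in the other subcutaneous libraries. Chance alone marks about 1 set in 20. The same library was the shallowest, with 4379954 estimated reads, had 28.0% of its reads on mitochondrial ribosomal RNA, and had 4419 CPM summed over fibroblast and adipose progenitor markers. Their part in the Snhg12 value was not tested.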

How the results depend on the processing

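Values are log2 fold changes with adjusted p, computed under 25 alternatives. Snhg15 was called in both depots under all 25 (3.64 to 3.92 in gonadal and 3.74 to 4.003 in subcutaneous adipose against blood), and Neat1 under none. Without retained-intron transcripts 1 member was called in gonadal (beside 24.2% of all genes) and 2 in subcutaneous adipose (beside 23.4%) against blood. Gas5 then had 0.22 in gonadal and 0.54 in subcutaneous adipose, and Snhg1 had 0.42 in gonadal and -0.71 in subcutaneous adipose. With an effective length offset Snhg1 had 0.71 in gonadal and 1.40 in subcutaneous adipose, neither called; the cause was not tested. Malat1 was called by DESeq2 (0.58 gonadal, 0.71 subcutaneous), by limma-voom with library weights (0.59 gonadal, 0.55 subcutaneous) and with the replicate block as a random effect (0.57 gonadal, 0.65 subcutaneous). The paired fit with the replicate block as a fixed effect gave 0.50 in gonadal and 0.53 in subcutaneous adipose for Malat1 and changed no call of a member. Leaving out 1 library at a time gave 1.06 to 1.28 for Snhg1 in gonadal adipose, 0.52 to 0.77 for Malat1 and 1.02 to 2.21 for Snhg12 in subcutaneous adipose, each on both sides of the threshold. Without subcutaneous adipose of mouse 2846 and blood of mouse 2807 together, an alternative chosen after seeing the data, as were the snoRNA values without single libraries and the counts on retained-intron transcripts alone and on transcripts with a snoRNA gene in an exon, Snhg12 had 1.01 (not called). Scaling by library totals moved the median of all genes by over 0.1 in subcutaneous adipose against blood (0.07 to -0.06) and between the depots (-0.01 to 0.13), and changed no call of a member. The transcript shares passed the threshold under no alternative, and 4 libraries against 3 cannot reach it. With 4 against 4, full separation in only the Gas5 comparisons against blood and that of Snhg1 in subcutaneous adipose cannot reach it either. For 45 results on other named genes, 1082 of 1125 recomputed values kept their direction and side of the threshold, and 0 reversed. Snhg15 had 28.1 to 58.0 estimated reads in a blood library, which limits the precision of its blood values.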
